A study of Arabidopsis thaliana with 16 samples.

Results

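Unannotated intergenic loci are places on the nuclear chromosomes where RNA-seq reads were assembled into a transcript although no annotated gene lies there on either strand. The members were all assembled loci of chromosomes 1 to 5 that had a strand and shared no base with a TAIR10 gene. By this rule 89 of 20880 loci of the zeocin table and 475 of 22818 loci of the UV-C table were members, 564 of 43698 in all. The samples were whole seedlings of Arabidopsis, accession Col-0, kept in vitro until 15 days old, without a mutation or transgene in any group. The zeocin group held 5 libraries of seedlings given zeocin, a bleomycin-type drug that breaks DNA, at 200 microg/ml for 3 h, and was set against 5 mock libraries. The UV-C group held 3 libraries of seedlings irradiated at 8 kJ/m2, and was set against 3 mock libraries of its own. The series was designed to look for long non-coding RNAs in the response to DNA damage, and loci outside every known gene are where unlisted RNAs of that kind would appear.

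As background, long non-coding RNAs are transcripts that code for no sizeable protein. Those transcribed between genes often have few exons and a low level, are found under particular stresses, and may start at a promoter shared with a neighbouring gene or run on from one. In plant DNA damage signalling the transcription factor SOG1 takes the part that p53 has in animals and binds a palindrome of CTT, any 7 bases and AAG. WRKY transcription factors of the stress response bind the W box, here sought as TTGACC or TTGACT.

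The sequences below carry the results that follow. All are TAIR10 sequence from RefSeq, written 5′ to 3′ along the strand of the locus. The first set holds the windows from 250 bases before to 50 bases after the assembled 5′ end of a pair of loci that rose after zeocin. Each match to the SOG1 palindrome is in capitals. Of the 5 loci that rose, only these 2 had a window with the palindrome. Over all 89 zeocin members 23.6% of windows had it. STRG.2816 (window chr1:16934887-16935186, plus strand) held it once, at position -112 counted from the assembled 5′ end, and STRG.11072 (window chr3:11645330-11645629, plus strand) held it at positions -165 and -149.
STRG.2816: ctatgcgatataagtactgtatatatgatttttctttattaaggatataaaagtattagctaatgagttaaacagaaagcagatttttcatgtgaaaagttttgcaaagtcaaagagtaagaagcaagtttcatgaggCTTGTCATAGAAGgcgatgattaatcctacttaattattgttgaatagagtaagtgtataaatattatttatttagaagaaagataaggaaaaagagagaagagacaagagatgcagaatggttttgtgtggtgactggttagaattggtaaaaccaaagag
STRG.11072: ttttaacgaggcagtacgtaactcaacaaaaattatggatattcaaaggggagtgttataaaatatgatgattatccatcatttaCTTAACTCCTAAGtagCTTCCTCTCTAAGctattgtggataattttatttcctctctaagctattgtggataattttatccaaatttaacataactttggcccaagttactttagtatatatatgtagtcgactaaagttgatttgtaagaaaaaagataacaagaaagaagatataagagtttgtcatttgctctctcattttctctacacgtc

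The second set holds the same window of a pair of loci found after UV-C and at 0 counts in every mock library, with each W box in capitals on either strand. STRG.6074 (window chr1:30380354-30380653, plus strand) lies on the 5′ side of the WRKY40 gene and held 4 W boxes at positions -79, -70, -63 and -54. STRG.201 (window chr1:659858-660157, plus strand) lies head to head with the glutathione transferase gene GSTF7 and held 4 W boxes at positions -223, -78, -70 and 20.
STRG.6074: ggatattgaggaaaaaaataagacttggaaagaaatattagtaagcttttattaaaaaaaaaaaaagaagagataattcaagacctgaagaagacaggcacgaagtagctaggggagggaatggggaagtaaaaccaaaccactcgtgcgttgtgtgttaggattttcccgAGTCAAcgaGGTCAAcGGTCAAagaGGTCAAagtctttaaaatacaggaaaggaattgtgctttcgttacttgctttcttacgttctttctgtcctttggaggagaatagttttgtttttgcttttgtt
STRG.201: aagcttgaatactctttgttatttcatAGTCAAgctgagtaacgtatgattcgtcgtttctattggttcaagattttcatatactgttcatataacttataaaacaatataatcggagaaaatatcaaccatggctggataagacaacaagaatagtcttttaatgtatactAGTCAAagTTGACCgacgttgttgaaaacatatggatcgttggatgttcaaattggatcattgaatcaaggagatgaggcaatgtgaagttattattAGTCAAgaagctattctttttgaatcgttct

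The third set shows the RNAs themselves for the 4 members with the highest level per length in the UV-C table, in lower case throughout. STRG.6492 (chr2:3313773-3314010, minus strand), STRG.20519 (chr5:17475024-17475235, plus strand) and STRG.2786 (chr1:11670526-11670733, minus strand) are shown whole. Of STRG.7404 (chr2:10454820-10455183, plus strand) the first 300 bases are shown.
STRG.6492: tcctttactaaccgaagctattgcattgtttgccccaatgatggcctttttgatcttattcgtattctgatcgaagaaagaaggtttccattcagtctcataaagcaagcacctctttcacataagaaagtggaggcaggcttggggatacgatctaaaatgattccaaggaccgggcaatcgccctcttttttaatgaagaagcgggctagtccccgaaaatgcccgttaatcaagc
STRG.20519: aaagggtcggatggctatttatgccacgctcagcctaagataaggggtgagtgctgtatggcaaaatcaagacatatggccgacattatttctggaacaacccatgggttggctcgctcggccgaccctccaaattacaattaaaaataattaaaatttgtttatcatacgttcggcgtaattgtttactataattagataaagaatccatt
STRG.2786: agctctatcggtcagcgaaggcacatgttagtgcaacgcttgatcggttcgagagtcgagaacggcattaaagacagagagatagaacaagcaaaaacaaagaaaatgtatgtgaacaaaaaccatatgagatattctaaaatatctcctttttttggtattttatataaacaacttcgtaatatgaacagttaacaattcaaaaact
STRG.7404: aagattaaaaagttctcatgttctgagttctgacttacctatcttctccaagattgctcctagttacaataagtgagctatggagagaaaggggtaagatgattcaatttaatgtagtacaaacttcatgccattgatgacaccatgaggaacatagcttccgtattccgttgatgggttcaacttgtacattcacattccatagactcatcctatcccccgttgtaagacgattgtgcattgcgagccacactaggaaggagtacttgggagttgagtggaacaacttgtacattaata

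The loci were short, mostly unspliced and close to genes. Exonic lengths ran from 206 to 2625 bases (median 452) in the zeocin table and from 200 to 2131 bases (median 381) in the UV-C table, where 200 bases was the shortest transcript the assembly kept. A single exon made up 76 of the 89 zeocin members and 461 of the 475 UV-C members. The spliced members had 15 introns in the zeocin table and 19 in the UV-C table, and all of these began with GT and ended with AG. The nearest annotated gene lay a median of 473 bases away for zeocin members and 517 bases away for UV-C members. It was on the locus's own strand or the other, and 47 zeocin members (52.8%) and 291 UV-C members (61.3%) lay on its 5′ side.

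They were poorer in GC than other loci and seldom held a long open reading frame. The median GC content was 36.4% in zeocin members and 33.6% in UV-C members, against 42.0% and 41.7% over all nuclear loci of the zeocin and UV-C tables. An open reading frame of at least 100 codons was present in 1 zeocin member (1.12%) and 6 UV-C members (1.26%), against 80.1% and 72.0% of all nuclear loci. A similar sequence elsewhere in the genome, of at least 80% identity over at least 50% of the locus, was found for 38 zeocin members (42.7%) and 91 UV-C members (19.2%). Fragments that map to several places were not counted, so levels of such loci can be too low.

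The windows around the assembled 5′ ends were searched on both strands for 6 motifs, each by its letters; matches of different motifs may overlap. The SOG1 palindrome was in the windows of 21 zeocin members (23.6%) and 77 UV-C members (16.2%), against 12.3% and 11.9% of all nuclear loci of the zeocin and UV-C tables. The W box was in 26 zeocin windows (29.2%) and 233 UV-C windows (49.1%), against 32.7% and 32.9% of all. The G box CACGTG, a site of light and stress factors, was in 3 zeocin windows (3.37%) and 67 UV-C windows (14.1%), against 8.99% and 8.58% of all. AACGG, the core of the element bound by the MYB3R factors of the cell cycle, was in 31.5% of zeocin windows and 26.5% of UV-C windows, against 27.1% and 26.0% of all. TATAAA was in 52.8% and 51.4%, against 49.8% and 49.2% of all, and AGCCGCC, the GCC box of ethylene response factors, was in 0 zeocin windows and 1.47% of UV-C windows, against 1.22% and 1.13% of all. The assembled end is not a mapped transcription start, and a match of letters is not a measured binding site.

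Depth was similar throughout, with 31185080 to 44536500 counts in a zeocin library, 31329853 to 41488445 in a zeocin mock library, 27973871 to 30014943 in a UV-C library and 32161555 to 37507136 in a UV-C mock library. The labelled tissue was checked with RBCS1A, LHCB1.3 and PSBO1 of green tissue, CASP1, PHT1;1 and SCR of roots, FAMA of the stomatal lineage and KNOLLE of dividing cells, and all were detected in every group. The repair gene BRCA1 averaged 576 ± 40.3 CPM (counts relative to library size, scaled by TMM factors) after zeocin and 4.28 ± 0.279 CPM in mock (SD, n = 5 each). The damage-response gene SMR7 averaged 7.90 ± 0.736 CPM after UV-C and 0.109 ± 0.0220 CPM in mock (SD, n = 3 each). Of these 8 markers 4 fell after zeocin (CASP1, PHT1;1, SCR and KNOLLE) and 6 after UV-C (RBCS1A, LHCB1.3, PSBO1, PHT1;1, FAMA and KNOLLE), with log2 fold changes from -1.44 to -0.56 and from -2.80 to -0.51. In whole seedlings fewer cells of a type and less RNA per cell cannot be told apart. Counts on plastid loci made up 38.6% ± 1.81 of the UV-C libraries and 45.3% ± 1.33 of their mocks, and ribosomal RNA loci made up 0.799% ± 0.0961 after UV-C and 0.0166% ± 0.00102 in mock (SD, n = 3 each); their part in the results below was not tested.

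Together the intergenic loci took a small share of each library, and that share was larger after UV-C. The 5 zeocin libraries held 49.7, 54.5, 56.7, 50.2 and 49.4 CPM in member loci, here as a plain share of all counts of the library, against 36.9, 48.2, 43.2, 45.5 and 54.5 in the 5 mock libraries. The zeocin mean of 52.1 ± 3.30 and the mock mean of 45.7 ± 6.47 (SD, n = 5 each) lay within overlapping ranges. The 3 UV-C libraries held 323, 321 and 317 CPM, against 87.5, 87.6 and 85.8 in the 3 mock libraries. The UV-C mean was 320 ± 2.77 and the mock mean 87.0 ± 0.970 (SD, n = 3 each), and the groups lay far apart. The shares are descriptions without a test, since the loci were chosen with earlier results of these data known. Each of the 3 UV-C libraries had counts in 428 of the 475 members, against 110 to 128 in the mock libraries, which had been sequenced more deeply. Of the 89 zeocin members, 69 to 75 had a count in a zeocin library, against 56 to 64 in a mock library. The loci were assembled from reads of both groups merged, so a locus could enter through reads of 1 group alone. The shares and these numbers therefore include loci admitted by the group in which they were high, and describe these assemblies only.

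**Figure D1:**
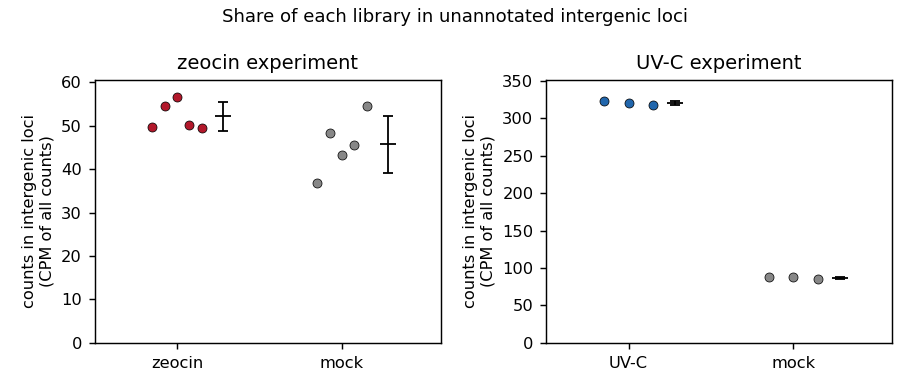
Counts in unannotated intergenic loci as CPM of the library (a plain share of all its counts), with 1 point per library and the mean and SD beside each group, for the zeocin experiment (left panel, zeocin then mock) and the UV-C experiment (right panel, UV-C then mock). The zeocin and mock libraries overlap, and the 3 UV-C libraries sit between 317 and 323, all above the mock libraries at 85.8 to 87.6. The loci include those admitted to the assembly by the group in which they were high.

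The zeocin comparison asked which intergenic loci differed after 3 h of the drug. Most members had too few counts to test: 28 of the 89 passed edgeR's filter on low counts and 61 did not, with mean counts of 0.4 to 10.2 per library. By edgeR's quasi-likelihood test at an adjusted p below 0.05, 5 members rose, 1 fell and 22 were not called. Over all 19447 loci tested, 15.0% rose and 12.0% fell, and 27.0% were called in either direction. The 5 cannot be read as a share of the members, because all of them passed the filter only through the zeocin libraries. Of the 5, 4 had 0 to 3 counts over the mock libraries, and STRG.1746 had 16, of which 11 were in mock library 5. Among the 14 tested members with a mean of at least 0.5 CPM in mock, 0 rose, 1 fell and 13 were not called by edgeR's test, while 14.5% of all such loci rose and 12.6% fell. At an unadjusted edgeR p below 0.05, 0 of the 14 were higher and 2 lower after zeocin, and DESeq2 called the same numbers. The median log2 fold change was 0.16 over the 28 members tested and -0.02 over all loci tested. Over all 89 members, counts pooled over libraries were relatively higher after zeocin in 56 (62.9%), against 48.7% of all loci. Groups did not overlap for 14 of the 89 members with zeocin above and for 2 with zeocin below. Among the 28 tested these were 6 and 1, and of all loci tested 11.5% and 8.13% stood apart in those directions. In the mocks 6 members had 0 counts in every library, against 0 members with 0 in every zeocin library. The loci were assembled from reads of both groups merged, above a minimum coverage of 10. The 56 and the 14 can therefore include loci admitted by the group in which they were high, and describe this table only.

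All 5 loci that rose were near or at 0 in mock seedlings and between 0.376 and 2.95 CPM in the zeocin libraries. STRG.2816 (chr1:16935137-16935766, plus strand), the first window printed above, had 0.376, 0.981, 0.563, 0.827 and 0.427 CPM in the zeocin libraries and 0 in all 5 mock libraries. With the mock group set to 3 counts over the group it was at least 41.0-fold higher after zeocin (edgeR adjusted p = 0.000119). It lies 568 bases beyond the 3′ end of AT1G44830, on the same strand; AT1G44830 encodes an ERF/AP2 transcription factor and rose too, by 1.79 ± 0.18 on the log2 scale (SE; edgeR adjusted p = 3.3e-06).

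STRG.11072 (chr3:11645580-11646480, plus strand), with the pair of palindromes, varied most among the zeocin libraries. It had 2.95, 1.87, 0.587, 1.39 and 1.01 CPM in the zeocin libraries, against 0.0287, 0, 0.0246, 0 and 0 in the mock libraries. Pooled over libraries that was 288 counts against 2, a ratio of 147 after scaling with an exact 95% interval of 40.5 to 1224 for counting error (edgeR adjusted p = 5.16e-06). The nearest entry is AT3G00590, an RNA gene of no stated type 970 bases downstream, for which no locus was measured. Another member, STRG.11071, lies upstream on the same strand at chr3:11642525-11643249 and did not pass the filter, with 73 counts over the zeocin libraries and 5 over the mock libraries; it is named after its values were seen.

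STRG.18638 (chr5:17134665-17135470, minus strand) was spliced, with 3 exons. It had 0.694, 1.21, 1.3, 0.959 and 1.13 CPM in the zeocin libraries, against 0.0231 CPM in 1 mock library, a single count, and 0 in the other mock libraries. The pooled ratio was 208 (exact 95% interval 36.9 to 8251, counting error only; edgeR adjusted p = 7.62e-07). It starts 190 bases from the start of AT5G42740, a sugar isomerase gene on the other strand, which rose by 0.96 ± 0.08 on the log2 scale (SE; edgeR adjusted p = 4.21e-07). This locus has 4 similar copies elsewhere, the closest at 84.6% identity.

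STRG.13255 (chr4:5440063-5440852, plus strand) had 0.549, 0.444, 1.39, 0.529 and 1.08 CPM in the zeocin libraries, against 0.0461 CPM in 1 mock library and 0 in the other mock libraries. The pooled ratio was 78.9 (exact 95% interval 21.5 to 657, counting error only; edgeR adjusted p = 3.79e-05). STRG.1746 (chr1:7443230-7444005, plus strand, 2 exons) had 0.809, 0.958, 0.685, 0.562 and 0.603 CPM in the zeocin libraries, against 0.0861, 0.0316, 0.0246, 0 and 0.254 in the mock libraries, a log2 fold change of 3.10 ± 0.61 (SE; edgeR adjusted p = 0.00146). Mock library 5 held 11 of the 16 mock counts of STRG.1746, and without it the log2 fold change was 4.30. Neither has a measured gene as its nearest neighbour: AT4G08545, annotated as an LRR receptor-like protein gene, lies 895 bases 5′ of STRG.13255, and the pseudogene AT1G21260 lies 250 bases from STRG.1746, head to head. In each of these 5 loci every zeocin library was above every mock library. The W box was in the windows of 3 of the 5, STRG.2816, STRG.18638 and STRG.1746. The SOG1 palindrome was in those of 2 of the 5, STRG.2816 and STRG.11072. Over all 89 members the W box was in 29.2% of windows and the palindrome in 23.6%, against 32.7% and 12.3% of all nuclear loci. With only 5 loci these counts cannot be told apart from such shares.

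The only member that fell by the test, STRG.20626 (chr5:26415227-26415756, minus strand), did so weakly. It had 0.0867, 0.280, 0, 0.0992 and 0.176 CPM in the zeocin libraries, against 0.287, 0.284, 0.838, 0.990 and 0.231 in the mock libraries, and the groups overlapped. The log2 fold change was -1.99 ± 0.66 (SE; edgeR adjusted p = 0.0358). The call was lost without any 1 of zeocin libraries 1, 3, 4 and 5 or mock libraries 3 and 4, with adjusted p from 0.0558 to 0.108 in edgeR.

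**Figure D2:**
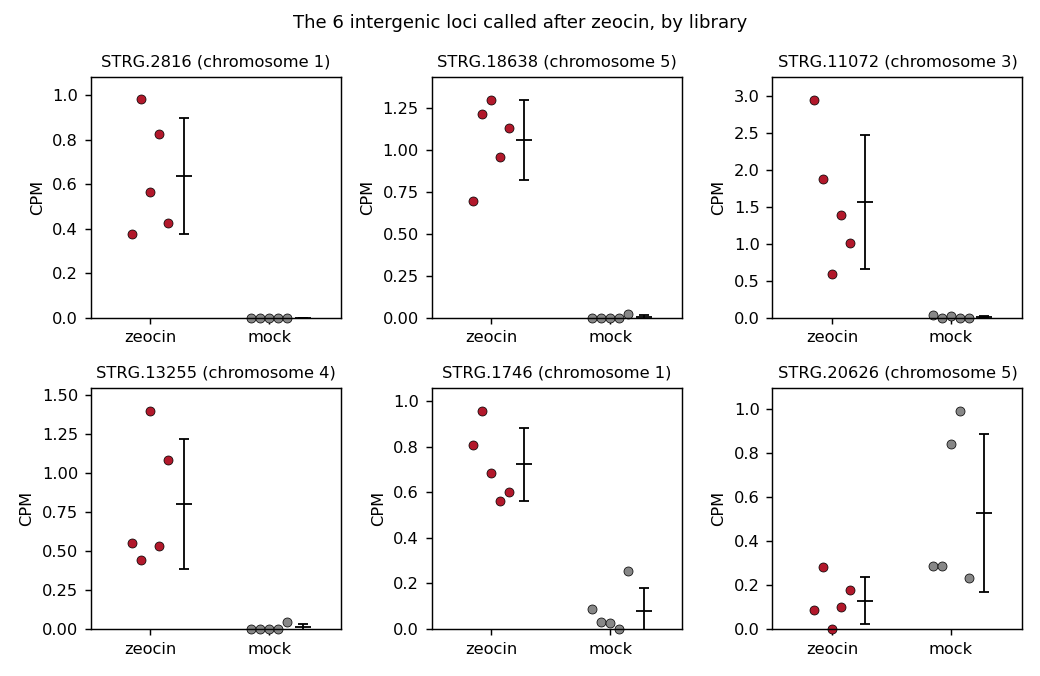
CPM of the 6 intergenic loci called after zeocin, with 1 point per library and the mean and SD beside each group (n = 5 each), zeocin left of mock in each panel. The first 5 panels show loci with every zeocin library above every mock library, and the last shows STRG.20626, where the groups overlap.

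The count of 5 rises depends on the filter. Tested without a filter, 18 of the 89 members rose and 3 fell; DESeq2 gave 18 and 4. Leaving out 1 library gave 5 to 9 rises, with 8 or 9 without zeocin library 4 or mock libraries 1, 2, 3 or 4, and the same 5 loci were among the rises each time. No member had a gene of the DNA damage list used here as its nearest gene, in either table.

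The intergenic loci with the highest levels did not pass the test after zeocin. STRG.11094 (chr3:12559330-12560045, minus strand, 2 exons) stood first, with 14.4, 20.3, 23.0, 17.8 and 16.5 CPM in the zeocin libraries and 10.4, 16.4, 13.7, 16.6 and 23.1 CPM in the mock libraries, and held 34.7% of all member counts after zeocin and 36.5% in mock. Its log2 fold change was 0.20 ± 0.19 (SE; edgeR adjusted p = 0.485), and its mean over all libraries was 29.0 CPM per kb. STRG.2484 (chr1:11454043-11454938, minus strand) followed at 6.29 CPM per kb, with 2.98, 5.54, 5.68, 3.97 and 5.71 CPM after zeocin, all below the mock libraries at 6.11, 6.48, 7.22, 6.39 and 6.32 CPM. Its log2 fold change of -0.44 ± 0.17 (SE) missed the threshold (edgeR adjusted p = 0.0664), but passed it with upper quartile factors (edgeR adjusted p = 0.0326) and in DESeq2 (adjusted p = 0.0465). STRG.1130, STRG.6608 and STRG.5833 came next at 2.60, 1.82 and 1.64 CPM per kb, with log2 fold changes of 0.28 ± 0.27, -0.15 ± 0.26 and -0.31 ± 0.34 (SE), none called. Only STRG.11094 exceeded the median over all nuclear loci of 6.33 CPM per kb; the median member had 0.279 CPM per kb.

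STRG.5833 (chr2:3394948-3395491) belongs to a group of 12 zeocin members between positions 3267772 and 3465970 of chromosome 2 that match the RefSeq mitochondrial genome at 99.8% identity or more. This stretch near the centromere is known as an insertion of mitochondrial DNA, and fragments from the nucleus and from mitochondria cannot be told apart at such identity. Fragments with several places were left out, yet these loci held counts. The mitochondrial sequence of the authors' build may differ from the RefSeq one, which was not tested. Of the 12, 7 were tested and 0 were called by edgeR or DESeq2 (1 at an unadjusted edgeR p below 0.05), with log2 fold changes from -0.31 to 1.02. They held 12.6% of the member counts after zeocin and 14.4% in mock. Without them the share of the library in members was 45.5 ± 3.67 CPM after zeocin and 39.0 ± 6.19 in mock (SD, n = 5 each).

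The same question was put to irradiated seedlings, and most of the intergenic loci that rose there had been at or near 0 in mock. Of the 475 members 125 passed the filter; by edgeR's test 114 rose, 3 fell and 8 were not called. Over all 19587 loci tested 33.6% rose and 30.9% fell, and 64.4% were called in either direction. The 114 cannot be read as a share, because 72 of them had 0 counts in every mock library and 26 had 1 to 3, and so passed the filter only through the irradiated libraries. Rises with a few more mock counts passed in the same way, among them STRG.17807 with 10 over the mock group. Over all 475 members, tested or not, pooled counts were relatively higher after UV-C in 415 (87.4%), against 51.9% of all loci, and lower in 40. The UV-C libraries were all above the mock libraries for 362 of the 475 and all below for 13. Among the 125 tested these were 116 and 4, and of all loci tested 36.2% and 34.3% stood apart in those directions. In the mocks 310 members had 0 counts in every library, against 24 members with 0 in every UV-C library. Only 455 of the 475 had a count in any library, so the 310 and the 24 both include loci at 0 throughout. The loci were assembled from reads of both groups merged, above a minimum coverage of 1 (2 for single exons). A locus could thus enter the table through reads of 1 group alone. The 415, the 362 and the 116 therefore include loci admitted by the group in which they were high, and describe this table only.

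The members already present in mock seedlings moved in both directions. Among the 16 with a mean of at least 0.5 CPM in mock, 6 rose, 3 fell and 7 were not called, while 29.7% of all such loci rose and 34.1% fell. The rises among these 16 were STRG.1273, STRG.2786, STRG.1266, STRG.20519, STRG.14194 and STRG.4315, with log2 fold changes of 4.12, 2.7, 1.92, 1.24, 1.20 and 0.89. The call of STRG.4315 was lost in DESeq2 (adjusted p = 0.068) and without any 1 of UV-C libraries 1 and 2 or mock libraries 1 and 3, with edgeR adjusted p from 0.0504 to 0.0915.

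**Figure D3:**
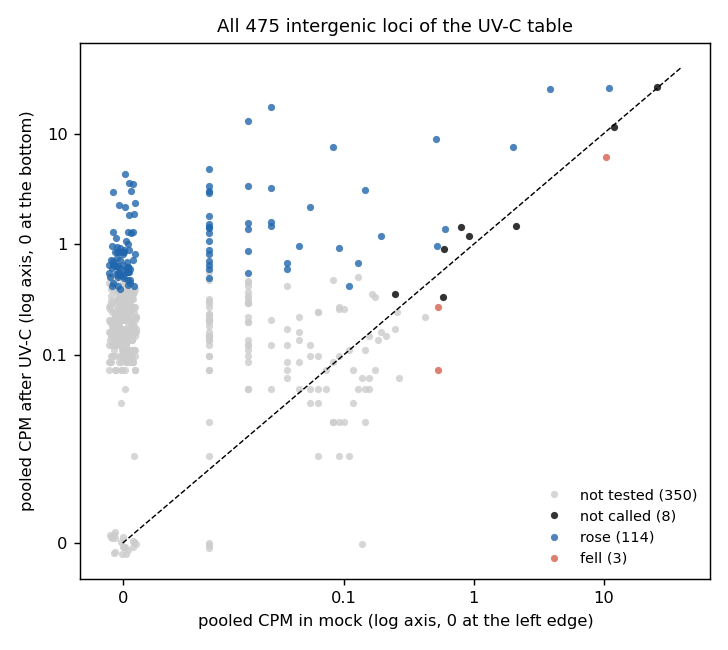
Pooled CPM after UV-C (vertical, log axis) against pooled CPM in mock (horizontal, log axis) for the 475 intergenic loci of the UV-C table, with loci at 0 counts drawn with a small random offset at the left or bottom edge and the dashed line marking equal levels. Blue points rose (114), red points fell (3) and black points were tested and not called (8). Grey points had too few counts to be tested (350). Most points lie above the line, and 310 of all the points are at 0 in mock.

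Of the 10 largest rises by fitted fold change, 8 had no count at all in the 3 mock libraries. STRG.6074 (chr1:30380604-30381098, plus strand), whose window with 4 W boxes is printed above, had 4.96, 3.34 and 4.65 CPM after UV-C and was at least 156-fold higher, with the mock group set to 3 counts over the group (edgeR adjusted p = 9.88e-07). It lies 2462 bases upstream of WRKY40 on the same strand; WRKY40, which encodes a W-box-binding factor of the pathogen response, rose by 4.08 ± 0.23 on the log2 scale (SE; edgeR adjusted p = 4.49e-06) to 172 CPM after UV-C, against 10.1 CPM in mock. STRG.201 (chr1:660108-660560, plus strand, 2 exons), the other locus with 4 W boxes, had 3.18, 3.13 and 2.73 CPM after UV-C and was at least 110-fold higher. Its start lies 127 bases from that of GSTF7, a glutathione transferase of the phi class used in detoxification, which rose by 3.58 ± 0.16 on the log2 scale (SE; edgeR adjusted p = 1.76e-07).

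Other loci at 0 in mock stood beside genes that rose. STRG.9272 (chr2:18494423-18495105, plus strand) had 2.20, 2.33 and 2.23 CPM after UV-C, at least 81.9-fold higher; it ends 109 bases before ERF13, an ethylene response factor gene on the same strand that rose by 5.92 ± 0.17 on the log2 scale (SE). STRG.7650 (chr2:11691189-11692452, minus strand) had 2.61, 2.09 and 2.5 CPM after UV-C, at least 86.8-fold higher, beside AT2G27320, whose log2 fold change was 6.03 ± 0.58 (SE). STRG.193 (chr1:729303-729720, minus strand) had 3.33, 1.39 and 1.81 CPM after UV-C, at least 78.3-fold higher, and lies head to head at 109 bases with AT1G03070, a Bax inhibitor family gene that rose by 4.32 ± 0.55 on the log2 scale (SE). Each of these 3 loci and 3 neighbours passed edgeR's test.

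In other cases the nearest gene did not pass the test. STRG.15597 (chr4:10840861-10841130, minus strand) had 2.95, 4.17 and 3.65 CPM after UV-C, at least 131-fold higher, while PTAC9, a gene of the plastid transcription apparatus 804 bases away head to head, had a log2 fold change of 0.02 ± 0.08 (SE; edgeR adjusted p = 0.812). STRG.18414 (chr5:3482360-3483278, plus strand) had 3.18, 3.34 and 4.0 CPM after UV-C, at least 127-fold higher, while AT5G11010, a pre-mRNA cleavage complex gene 353 bases downstream on its strand, had 0.23 ± 0.13 (SE; edgeR adjusted p = 0.146). STRG.11599 (chr3:8186099-8187071, plus strand, 2 exons) had 2.61, 2.75 and 3.53 CPM after UV-C, at least 107-fold higher, and its nearest gene, the annotated long non-coding RNA AT3G04375, was not measured.

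STRG.7404 and STRG.21379 had higher levels per length than the loci just described, at 24.1 and 14.8 CPM per kb over all libraries. STRG.7404, of which 300 bases are printed above, had 18.3, 16.6 and 17.7 CPM after UV-C, against 0, 0.0575 and 0.0279 CPM in mock. Its pooled counts were 1422 against 3, a ratio of 636 (exact 95% interval 217 to 3090, counting error only; edgeR adjusted p = 1.26e-09). It lies head to head at 226 bases with AT2G24600, an ankyrin repeat gene that rose by 1.92 ± 0.28 on the log2 scale (SE; edgeR adjusted p = 0.000709). STRG.21379 (chr5:21386106-21386542, minus strand) had 11.7, 15.1 and 12.0 CPM after UV-C, against 0.0260, 0 and 0.0279 CPM in mock, a pooled ratio of 710 (exact 95% interval 196 to 5867, counting error only; edgeR adjusted p = 3.68e-09). It lies head to head at 184 bases with AT5G52760, annotated in the copper transport protein family, which rose by 6.23 ± 0.29 on the log2 scale (SE; edgeR adjusted p = 1.49e-06). Both loci held 2 W boxes in their windows.

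The next values describe rising loci by their mock counts, with those named above included. The 72 rising loci at 0 in mock averaged from 0.394 to 4.31 CPM after UV-C (median 0.654), at least 14.3-fold to at least 156-fold higher. The 16 rising loci with more than 3 mock counts had log2 fold changes from 0.89 to 6.46 (median 2.99). The W box was in the windows of 64 of the 114 rising loci (56.1%), the G box in 22 (19.3%) and the SOG1 palindrome in 18 (15.8%). Over all 475 members the shares were 49.1%, 14.1% and 16.2%. Over all nuclear loci of the UV-C table they were 32.9%, 8.58% and 11.9%, and the differences were not tested. With no filter on low counts 361 members rose and 7 fell, and DESeq2 gave 331 and 3.

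Falls after UV-C were few. STRG.2250 (chr1:8979368-8979938, plus strand) had 0.0379, 0.0695 and 0.115 CPM after UV-C, against 0.494, 0.374 and 0.725 CPM in mock, a log2 fold change of -2.78 ± 0.52 (SE; edgeR adjusted p = 0.000907). It lies 1062 bases beyond the 3′ end of AT1G25550, a myb-like transcription factor gene whose log2 fold change was -0.06 ± 0.08 (SE; edgeR adjusted p = 0.552). STRG.1022 (chr1:3774540-3775903, minus strand) had a log2 fold change of -0.96 ± 0.35 (SE; edgeR adjusted p = 0.0346) and lies 1332 bases from STP1, a hexose transporter gene that fell by 3.37 on the log2 scale. That call was lost without UV-C library 1 or 2 or mock library 2 or 3, with edgeR adjusted p from 0.0603 to 0.119, and in DESeq2 (adjusted p = 0.146).

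A few members had long open reading frames, which sets them apart from the rest; they are named after these values were seen. STRG.1266 (chr1:4818472-4820252, plus strand, 2 exons) held one of 526 codons, the longest of any member, and had 7.23, 7.09 and 8.53 CPM after UV-C, against 2.55, 1.18 and 2.26 CPM in mock, a log2 fold change of 1.92 ± 0.24 (SE; edgeR adjusted p = 7.47e-05). STRG.19634 (chr5:8951271-8953369, minus strand) had 7 exons and an open reading frame of 280 codons, and starts 5 bases from AT5G25754 on the other strand. Its mean was 6.13 ± 0.248 CPM after UV-C and 10.4 ± 0.847 CPM in mock (SD, n = 3 each), and it fell by 0.76 on the log2 scale (SE 0.10; edgeR adjusted p = 9.74e-05). No gene lies at either place in the annotation used here, and whether these loci encode proteins was not tested.

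By level per length the order in the UV-C table was STRG.6492, STRG.20519, STRG.2786, STRG.7404 and STRG.12212, at 109, 87.7, 69.6, 24.1 and 20.7 CPM per kb over all libraries; the sequences of the first 4 are printed above. STRG.6492 had 25.9, 25.7 and 27.1 CPM after UV-C and 26.0, 23.6 and 27.1 CPM in mock, so the groups overlapped (log2 fold change 0.04 ± 0.08, SE; edgeR adjusted p = 0.679). It matches the RefSeq mitochondrial genome at every base, and held 7.64% of member counts after UV-C and 31.5% in mock. The limit given above on the mitochondrial sequence of the authors' build applies to this locus too. STRG.20519 had 24.5, 25.6 and 28.4 CPM after UV-C, against 11.8, 12.6 and 8.79 CPM in mock, and rose by 1.24 ± 0.13 on the log2 scale (SE; edgeR adjusted p = 1.78e-05). STRG.2786 had 23.7, 24.3 and 27.3 CPM after UV-C, against 5.02, 3.60 and 2.90 CPM in mock, and rose by 2.7 ± 0.17 on the log2 scale (SE; edgeR adjusted p = 1.2e-06); its nearest entry AT1G09125, an RNA gene 765 bases upstream on the same strand, rose by 1.92 ± 0.16. After UV-C the levels of STRG.20519, STRG.2786 and STRG.6492 were 123 ± 9.36, 121 ± 9.28 and 110 ± 3.22 CPM per kb, with the library ranges of STRG.20519 and STRG.2786 overlapping, while in mock they were 52.1 ± 9.40, 18.5 ± 5.19 and 107 ± 7.38 CPM per kb and stood apart (SD, n = 3 each). STRG.12212 had 11.6, 10.8 and 11.9 CPM after UV-C and 11.5, 13.5 and 11.2 CPM in mock (log2 fold change -0.08 ± 0.10, SE; edgeR adjusted p = 0.492). Only 16 of the 475 members exceeded the median over all nuclear loci of 3.68 CPM per kb.

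Many of the rising loci lay beside genes that rose. Of the 114 rising members, the nearest gene rose for 58, fell for 5, was not called for 16, was not tested for 1 and had no locus of its own for 34. The 58 are 73.4% of the 79 with a measured nearest gene, and over all 475 members the nearest gene rose for 201 of 310 measured (64.8%), against 33.6% of all loci tested; this difference was not tested. By position, the nearest gene rose for 18 of 27 measured where the locus lay upstream on the same strand, 28 of 34 head to head, 7 of 10 downstream on the same strand and 5 of 8 tail to tail. In all 83 of the 114 rising members (72.8%) lay on the 5′ side of their nearest gene, against 291 of all 475 (61.3%). Of the 125 tested members 40 lay upstream on the same strand and 50 head to head, and 39 and 44 of these rose. Of 19 tested downstream on the same strand and 16 tail to tail, 16 and 15 rose. The contrast with all 475 does not separate rising from passing the filter, and was not tested.

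The measured neighbours of the 79 rising loci had a median log2 fold change of 1.45. The loci themselves cannot be ranked against these genes, because 71 of the 79 had 0 to 3 mock counts, passed the filter only through the UV-C libraries and have fitted fold changes that depend on the prior count. Over the 86 tested members with a measured nearest gene the log2 fold changes had Pearson's r = 0.41 and Spearman's rho = 0.43, as a description across loci that share libraries, with the same limit on the fitted values. Among neighbours with the largest rises were AT2G44070, AT3G22275 and BAP2, with log2 fold changes of 10.99, 10.27 and 9.52, beside STRG.9197, STRG.11539 and STRG.9358, which were named after their values were seen. The 5 rising loci whose nearest gene fell include STRG.10091 and STRG.10092, both on the 5′ side of PDK, a pyruvate dehydrogenase kinase gene whose log2 fold change was -1.04. A gene on the same strand ended within 1000 bases 5′ of 23 of the 114 rising loci; it rose for 7, fell for 1, was not called for 3 and had no locus for 12.

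**Figure D4:**
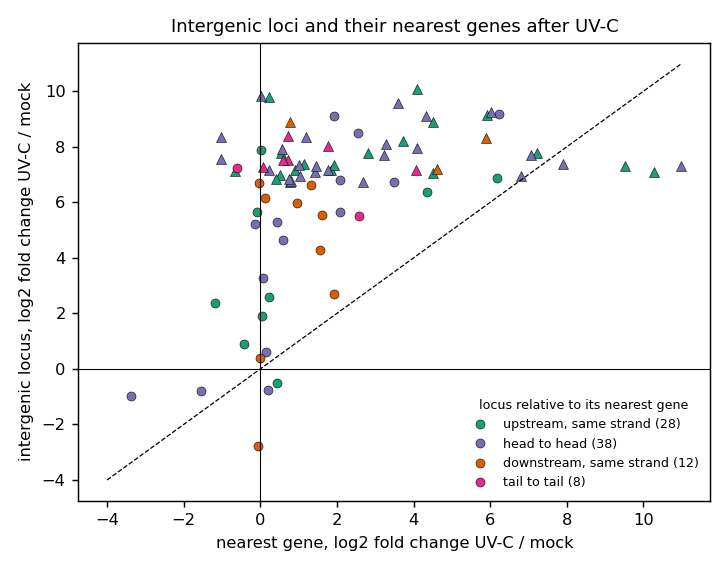
Log2 fold change UV-C over mock of an intergenic locus (vertical) against that of its nearest gene (horizontal) for the 86 tested loci with a measured neighbour, coloured by position relative to that gene; triangles are loci at 0 counts in every mock library, and the dashed line marks equal changes. Most loci lie to the right of 0, the fitted values of triangles depend on the prior count, and the values have Pearson's r = 0.41.

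The assemblies were made separately, and few intergenic loci were found in both. By reciprocal overlap of at least 50% on the same strand, 26 loci were shared, which is 29.2% of the zeocin members and 5.47% of the UV-C members. Of these 7 were tested in both experiments and 2 were called in both. STRG.13255, which rose after zeocin (above), corresponds to STRG.14553 of the UV-C table (chr4:5440063-5440511, plus strand), which had 1.06, 0.487 and 0.615 CPM after UV-C and 0 in all 3 mock libraries. It was at least 26.0-fold higher after UV-C (edgeR adjusted p = 0.00015), and both assemblies began it at the same base.

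STRG.20626, which fell after zeocin by the weak call above, corresponds to STRG.22615 (chr5:26415091-26415774, minus strand). That locus had 4.13, 1.84 and 3.38 CPM after UV-C, against 0.104, 0.173 and 0.167 CPM in mock, and rose by 4.37 ± 0.40 on the log2 scale (SE; edgeR adjusted p = 5.72e-06). The opposite signs were not set against each other in a test, and the experiments had separate mocks and assemblies. It lies head to head with AT5G66052, a gene of an uncharacterized protein, and has 3 similar copies elsewhere at up to 88.6% identity.

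A further shared locus on chromosome 3, named after its values were seen, was at 0 in all mock libraries of both experiments but had too few counts for the filter. It lies tail to tail with AT3G48650, a transcribed pseudogene that rose by 1.13 ± 0.36 on the log2 scale after zeocin (SE; edgeR adjusted p = 0.0339) and by 6.07 ± 0.21 after UV-C (SE; edgeR adjusted p = 6.51e-09). It had 0.260, 0.888, 0.441, 0.165 and 0.327 CPM in the zeocin libraries as STRG.11515 (chr3:18026843-18027745, minus strand), at least 28.3-fold higher than mock. As STRG.12711 (chr3:18027213-18027713) it had 0.454, 0.452 and 0.115 CPM in the UV-C libraries, at least 12.5-fold higher. STRG.11094 and STRG.12212 are likewise the same locus, and it was not called in either experiment. Of the 5 members that rose after zeocin, STRG.13255 was the only one with a shared locus. Only members were paired, so UV-C loci that overlap a gene were not searched for the other 4. Their response to UV-C was not examined.

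**Figure D5:**
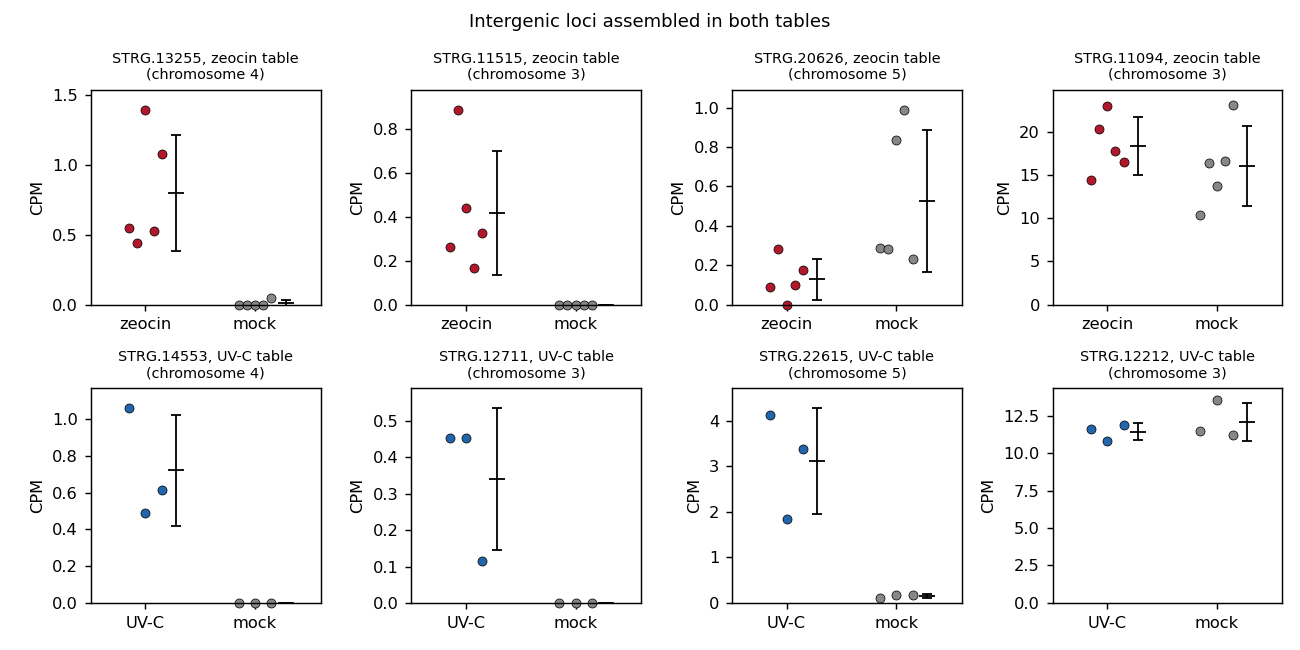
CPM of 4 intergenic loci assembled in both tables, with 1 point per library and the mean and SD beside each group; the upper row shows zeocin left of mock (n = 5 each), the lower row the same locus with UV-C left of mock (n = 3 each). The first 2 columns show loci above mock in both experiments, the third the locus that fell after zeocin and rose after UV-C, and the fourth the most abundant shared locus, which was called in neither.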

How the data were processed

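RNA was measured in 16 libraries, grouped by their titles: 5 zeocin, 5 mock, 3 UV-C and 3 mock of the UV-C experiment. Libraries were strand-specific (NEBNext Ultra Directional kit) from TRI reagent RNA after removal of ribosomal RNA, per the labels' protocols. The labels name no separate cultures, so p-values cover the spread between these libraries, which could be technical. Each experiment has a table, deposited by the authors, of raw counts of fragments on assembled loci. The submitters' processing notes name Trim Galore 0.11.8, STAR 2.7.1a and the build TAIR10. StringTie 2.1.5 assembled the loci without an annotation from a merged alignment of each experiment, and featureCounts 2.0.1 counted them by strand over exons, leaving out fragments with several places or loci, per the file headers. The minimum coverage was 10 in the zeocin assembly but 1 in that of UV-C (2 for single exons), per the file headers, so the tables differ in how many weak loci they hold. Locus names belong to 1 table, and the same number names different loci.

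Loci were compared with the TAIR10 chromosomes and genes of the RefSeq copy given for this work; 97.6% of introns of zeocin loci and 99.2% of those of UV-C loci matched annotated ones. Each table was fitted whole with edgeR 4.0.16 (R 4.3.3): TMM factors, default filter on low counts, robust quasi-likelihood test, two-sided, Benjamini-Hochberg adjusted over all loci tested, called below 0.05. Levels are TMM-scaled CPM, and depth within a table sets their precision. A nearest gene has a value where a locus on its strand covers at least 50% of its exons or lies by at least 50% within them. A mock group at 0 was set to 3 counts over the group; for 1 to 3 mock counts the scaled ratio of pooled counts has an exact 95% interval. Such intervals and floors cover counting error only. Similar sequences were found with BLAST 2.17.0 at an e-value of 1e-10. Named loci were, per table, the 10 largest rises and falls with a log2 fold change of at least 1, a mean of at least 0.5 CPM in the higher group and groups that do not overlap, the 5 highest levels per kb, and pairs called in both tables; exceptions are marked. Alternatives were other factors (RLE, upper quartile), loci of chromosomes 1 to 5 only, no filter, DESeq2 1.42.0, a replicate block, each library left out, and loci at least 500 bases from genes. The tests were checked on simulated data. The members, lists and motifs were chosen with earlier results of these data known. The assembled transcript models were not used.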

Additional observations from a re-analysis of the deposited data

Results flagged for a closer look

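Within groups of 5 libraries, 3 values of named intergenic loci stood far from the other libraries of their group, all in the zeocin mock group. In all 23 groups were screened. For normally spread values chance alone sets apart about 1 in 20 groups. That rate does not hold for a group of zeros with 1 value above 0, which is always set apart. STRG.1130 was at 0.567 CPM in mock library 3, below the other 4 mock libraries at 1.21 to 1.39 CPM. STRG.13255 was at 0.0461 CPM in mock library 5 and STRG.18638 at 0.0231 CPM in the same library, with the other 4 mock libraries at 0 in both cases; these stand for 2 counts and 1 count.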

How the results depend on the processing

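With no filter on low counts, 18 zeocin members rose and 3 fell, and 361 UV-C members rose and 7 fell. DESeq2 gave 18 rises and 4 falls after zeocin and 331 rises after UV-C. With members at least 500 bases from any gene, there were 3 rises and 0 falls after zeocin and 52 rises after UV-C. Upper quartile factors gave 2 falls after zeocin; they shifted the median log2 fold change of all loci by -0.056 for zeocin and -0.108 for UV-C, and made 12.9% higher and 15.8% lower of all zeocin loci, against 15.0% and 12.0%. Leaving out 1 library gave 5 to 9 rises and 0 to 1 falls after zeocin, and 121 to 144 rises and 2 to 3 falls after UV-C. The 5 zeocin rises were among the rises in all of these fits except that on distant loci, which leaves some out. On a denominator of chromosomes 1 to 5, the share in members was 82.1 CPM for zeocin and 69.7 for mock, and 529 for UV-C and 161 for mock. Without members with a mitochondrial copy, an alternative chosen after seeing the data, it was 45.5 for zeocin and 39.0 for mock, and 296 for UV-C and 59.6 for mock. A same-strand gene ended within 500 bases 5′ of 17 zeocin members and 51 UV-C members, against 28 and 108 within 1000 bases. Any overlap made 29 shared loci in place of 26.

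Single loci were followed through the same alternatives. For 11 zeocin loci, 166 results kept direction and side of the threshold, 7 lost the call (all of STRG.20626) and 3 gained it (all of STRG.2484, with adjusted p from 0.0322 to 0.0465). For 119 UV-C loci, 1407 were kept, 11 lost the call (STRG.1022 and STRG.4315), and 8 loci were not tested on chromosomes 1 to 5 alone. STRG.6492, not called in any fit, had a log2 fold change of -0.069 under upper quartile scaling, and of -0.027 to 0.070 with single libraries left out; the cause was not tested.

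Replicate numbers occur in both groups of each experiment, and the labels do not state that they pair the samples. The deviations of same-numbered libraries correlated at 0.42, 0.01, 0.23, -0.09 and 0.00 for zeocin and at -0.28, -0.02 and 0.14 for UV-C. These values show no regular pairing but cannot exclude one. With the replicate number as a block, 5 members rose and 1 fell after zeocin, and 114 rose and 2 fell after UV-C. The fall after zeocin was then another locus: STRG.20626 was not called (edgeR adjusted p = 0.0704) and STRG.2484 was (0.0322). The fall lost after UV-C was STRG.1022 (edgeR adjusted p = 0.0559). Depth limits most of these loci: the median member had a mean of 5.3 counts per library for zeocin and of 3.33 for UV-C.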
